A study of Mus musculus with 50 samples.

Results

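A set of 10 mouse genes, of 24552 in the count tables, stood out in the libraries labelled Sirt1-KO: Pcdhb1, Tspan11, Erich5, Stbd1 and Gm1943, which were higher there, and Rec8, Gal, Pgr15l, Cthrc1 and Klk6, which were lower. They were chosen from the largest log2 fold changes, though not in strict order. The contrast was between the 4 libraries labelled Sirt1-KO and the 4 D1 control libraries of the same table. The members' difference in that contrast is therefore a description, and no test of it is given. The other 42 libraries, which played no part in the choice, were then used to see where each gene is found: in D1-MSNs, in D2-MSNs, in whole nucleus accumbens (NAc) tissue, and after chronic social defeat stress. D1-MSNs and D2-MSNs are the medium spiny neurons of the NAc that carry the dopamine receptor Drd1 or Drd2.

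All mice were of the C57BL/6 background and carried RiboTag (RT), an allele of the ribosomal protein gene Rpl22 that Cre turns into an HA-tagged form. Cre came from 1 of 2 transgenic lines, D1-Cre (FK150) or D2-Cre (ER44), so pulling down HA gives the RNA on ribosomes of Cre-expressing cells (an IP library), while the input library holds RNA of the whole punch. Each library pooled 2 mice, with 6 NAc punches of 2 mm. The D1-IP groups were control without defeat (Con, n = 4), resilient (Res, n = 4) and susceptible (Sus, n = 5) after up to 10 days of defeat, the D2-IP groups had 5 libraries each, and the inputs had 3 per group and line; these mice were 8 to 12 weeks old. The 4 libraries labelled Sirt1-KO (numbered 1, 3, 4 and 5) are D1-IPs of male control mice that carried RT, D1-Cre and a floxed Sirt1 allele, with no defeat and no age given. Their age, cohort or preparation cannot be told apart from genotype where these differed from the D1 Con mice. The libraries held 18384265 to 31785984 counts assigned to genes.

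The label was first checked on its target. Sirt1 encodes an NAD-dependent protein deacetylase, and its level in CPM (counts per 1000000 counts on genes, here on one scale over the 50 libraries) was 16.1, 17.3, 14.1 and 10.7 in Sirt1-KO 1, 3, 4 and 5. The D1 Con libraries 1 to 4 had 13.9, 17.6, 15.7 and 15.2 CPM, so the groups overlapped. The log2 fold change of Sirt1 was -0.10, with an adjusted p of 0.768 (edgeR quasi-likelihood test), and the other 46 libraries ran from 13.3 to 19.9 CPM. The floxed exon is not given and counts of the whole gene include reads outside it, so these counts neither show nor test the deletion, and the group is called by its label here. Drd1, the marker of the targeted cells, was at 283 ± 35.4 CPM (SD, n = 4) in the Sirt1-KO libraries and 352 ± 41.5 (SD, n = 4) in D1 Con, and Drd2 at 86.6 ± 23.8 and 104 ± 16.2. Neither receptor passed the thresholds of the contrast.

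The members with a described role differ in it, and whether they share a pathway was not tested. Pcdhb1 is a clustered protocadherin, a family of adhesion proteins by which neurons tell their own branches from those of others; Tspan11 is a tetraspanin of cell membranes; and Stbd1 binds glycogen and links it to autophagy. Rec8 is the kleisin subunit of cohesin in meiosis. Gal encodes galanin, a neuropeptide that acts on receptors such as Galr1, and Pgr15l a predicted G protein-coupled receptor. Cthrc1 is a secreted protein tied to Wnt and planar polarity signalling, and Klk6 a secreted serine protease known for its abundance in oligodendrocytes, the myelin-forming cells.

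Gm1943 is shown by its sequence, because that sequence bears on what its counts mean. It is annotated as a processed pseudogene of 174 bases at chr8:109340691-109340864 on the minus strand (GRCm38, GENCODE vM21). The whole of it is identical, 174 of 174 bases, to positions 49 to 222 of the 2126-base Wdr70-201 transcript, whose gene lies on chromosome 15.
Gm1943: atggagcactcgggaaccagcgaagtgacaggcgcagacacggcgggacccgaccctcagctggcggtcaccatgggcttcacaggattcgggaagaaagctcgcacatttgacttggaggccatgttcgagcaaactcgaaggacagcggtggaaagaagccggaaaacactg
Reads whose whole fragment lies within this stretch cannot be assigned to one gene by sequence alone, so the Gm1943 count is uncertain. Wdr70 itself was at 21.5 ± 3.03 CPM (SD, n = 4) in the Sirt1-KO libraries and 17.9 ± 1.08 (SD, n = 4) in D1 Con, a log2 fold change of 0.26 that was not called.

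The other 9 members are protein-coding genes, spread over 8 chromosomes. Of these, Rec8 lies at chr14:55618037-55625395 (plus strand), Gal at chr19:3409915-3414544 (minus), Pgr15l at chrX:97072596-97082104 (plus), Cthrc1 at chr15:39076932-39087121 (plus) and Klk6 at chr7:43824499-43832030 (plus). Among the higher members, Tspan11 lies at chr6:127887589-127953977 (plus), Erich5 at chr15:34453305-34473892 (plus), Stbd1 at chr5:92603041-92606579 (plus) and Pcdhb1 at chr18:37264938-37267525 (plus). Pcdhb1 overlaps 3 annotated genes of the same strand and Tspan11 overlaps an antisense gene, Gm15870, and the strand setting of the counting is not given, so reads of such neighbours could be counted with theirs.

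Each of the 5 higher members had more in every Sirt1-KO library than in any D1 Con library. Pcdhb1 had 0.822, 0.516, 0.373 and 1.12 CPM in Sirt1-KO 1, 3, 4 and 5 and 0.180, 0.0779, 0.0342 and 0.119 CPM in D1 Con 1 to 4, a log2 fold change of 2.71 that rests on 11 to 23 counts per library against 1 to 5. Tspan11 had 1.05, 1.07, 0.746 and 1.17 CPM against 0.180, 0.156, 0.137 and 0.159, a log2 fold change of 2.63. Both are weakly expressed genes in these neurons, and the D1 Con libraries held at most 5 counts of either.
Erich5 had 2.69, 1.86, 2.37 and 2.69 CPM in the Sirt1-KO libraries and 0.612, 0.389, 0.684 and 0.0794 CPM in D1 Con, a log2 fold change of 2.40. Stbd1 had 2.80, 3.51, 2.68 and 1.86 CPM against 0.396, 0.273, 0.274 and 1.19, a log2 fold change of 2.37. The high Stbd1 control is D1 Con 4, and without that library the log2 fold change was 3.10.
Gm1943 had 4.15, 4.12, 4.68 and 4.54 CPM against 1.04, 0.935, 1.505 and 0.834, a log2 fold change of 2.01 and, relative to its mean, the narrowest spread of the higher members in the Sirt1-KO libraries (4.37 ± 0.280, SD, n = 4).

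The lower members were near the bottom of what these libraries can count. Rec8 had 0.112, 0.137, 0.305 and 0.147 CPM in Sirt1-KO 1, 3, 4 and 5, which is 3 to 9 counts, and 8.61, 5.26, 10.0 and 4.84 CPM in D1 Con 1 to 4, which is 122 to 293 counts. The log2 fold change was -5.29, the largest of any gene whose 2 groups did not overlap. Gal had 0.187, 0.137, 0 and 0.147 CPM against 1.26, 1.75, 1.95 and 2.02, a log2 fold change of -3.88. The Sirt1-KO 4 library held 0 counts of Gal, which allows a level of up to 0.102 CPM (3 counts in that library, counting error only).
Pgr15l had 0.187, 0.172, 0.237 and 0.195 CPM against 0.8286, 1.67, 0.889 and 2.26, a log2 fold change of -2.80. Cthrc1 had 0.373, 0.378, 0.136 and 0.684 CPM against 1.69, 2.30, 1.78 and 3.29, a log2 fold change of -2.57. Klk6 had 0.0373, 0.241, 0.339 and 0.0977 CPM against 0.649, 0.662, 0.821 and 1.19, a log2 fold change of -2.12. None of these 5 genes overlapped between the 2 groups of 4, and Rec8 was the one with the most counts in controls.

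Across the whole table the contrast called few genes. Of 13626 genes tested, 102 passed a fold over 1.5 and an adjusted p under 0.05 (0.749%), 38 higher (0.279%) and 64 lower (0.47%), while 9.5% of genes had groups that did not overlap. Of the 10 members, 9 were among the 102, which is no test, since they were chosen in this contrast. Klk6 was not, although its groups did not overlap. Gm15446 had a larger fall (log2 fold change -2.81, 0 to 0.859 CPM against 2.14 to 2.67) than Pgr15l, Cthrc1 and Klk6 and is no member. Il12a, which was not called, had a slightly larger rise (2.02) than Gm1943 (2.01) and is no member either. The next called gene after the members was Lefty2 among those higher (1.95, 0.733 to 1.80 CPM against 0.108 to 0.506) and Mid1 among those lower (-1.71, 1.12 to 2.82 CPM against 5.18 to 7.67). The count of calls leaned on single libraries, from 29 without Sirt1-KO 3 to 386 without Sirt1-KO 5, and fell to 38 without D1 Con 3, 45 without D1 Con 4, 63 without Sirt1-KO 1 and 52 without Sirt1-KO 4.

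Marker levels of several cell types also differed between the 2 groups. The summed level of 6 genes of cortical excitatory neurons was 898 to 1720 CPM in the Sirt1-KO libraries and 406 to 1109 in D1 Con, and that of 4 D1-MSN genes 957 to 1178 against 1268 to 1568. The sum of 4 D2-MSN genes was 1731 to 2708 CPM against 2388 to 3505. For 6 genes shared by both MSN types it was 3935 to 5600 CPM against 5204 to 6726. The median log2 fold change was -0.34 in the D1-MSN list, -0.34 in the D2-MSN list and -0.29 in the shared list. The sum of 6 genes of GABA interneurons was 250 to 339 CPM against 151 to 248. The sum of 10 oligodendrocyte genes was 445 to 631 CPM against 562 to 708, with none of the 10 at 0. Of 82 marker genes in 14 lists, the MSN lists included, 65 were tested in this contrast. Of these, 35 had an unadjusted p under 0.05 (53.8%), against 17.3% of all genes tested. The single one called was Slc5a7, the choline transporter of cholinergic cells, at 1.69 ± 0.396 CPM (SD, n = 4) against 3.68 ± 0.730 (SD, n = 4). In such pooled tissue, fewer cells of a type and less RNA per cell cannot be told apart, and the part of these shifts in the members' values was not tested.

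The relatives of the members were read from lists of related genes. Of 120 genes in 8 such lists, 89 were tested between the Sirt1-KO and D1 Con libraries and 0 were called by edgeR, where 0.749% of all genes were, and 21 had an unadjusted p under 0.05 (23.6%, against 17.3% of all genes). The gamma protocadherins, which these lists leave out, held 2 called genes, Pcdhga11 and Pcdhgb6. Among the 21 other Pcdhb genes the median log2 fold change was 0.09, and the nearest, Pcdhb2, had 0.76 (adjusted p = 0.0833, edgeR). The galanin receptor Galr1 had -1.02 (adjusted p = 0.137, edgeR), and the 7 sirtuins had a median of -0.07. The median over all genes tested was 0.00.

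The members' neighbours on the chromosome were examined next. Within 1000000 bases of the members 257 genes were tested and 3 called (1.17%, against 0.749% of all genes), Pcdhga11 and Pcdhgb6 near Pcdhb1 and Nrip2 near Tspan11. The gene nearest to Rec8, Ipo4, lies 5 bases away and had a log2 fold change of -0.07. Tspan9, 7419 bases from Tspan11, had 0.09, and Slc25a32, 4110 bases from Cthrc1, had -0.31. Around Sirt1 itself, 21 genes were tested and 0 called by edgeR, with 4 at an unadjusted p under 0.05 (19%, against 17.3% of all genes).

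**Figure D1:**
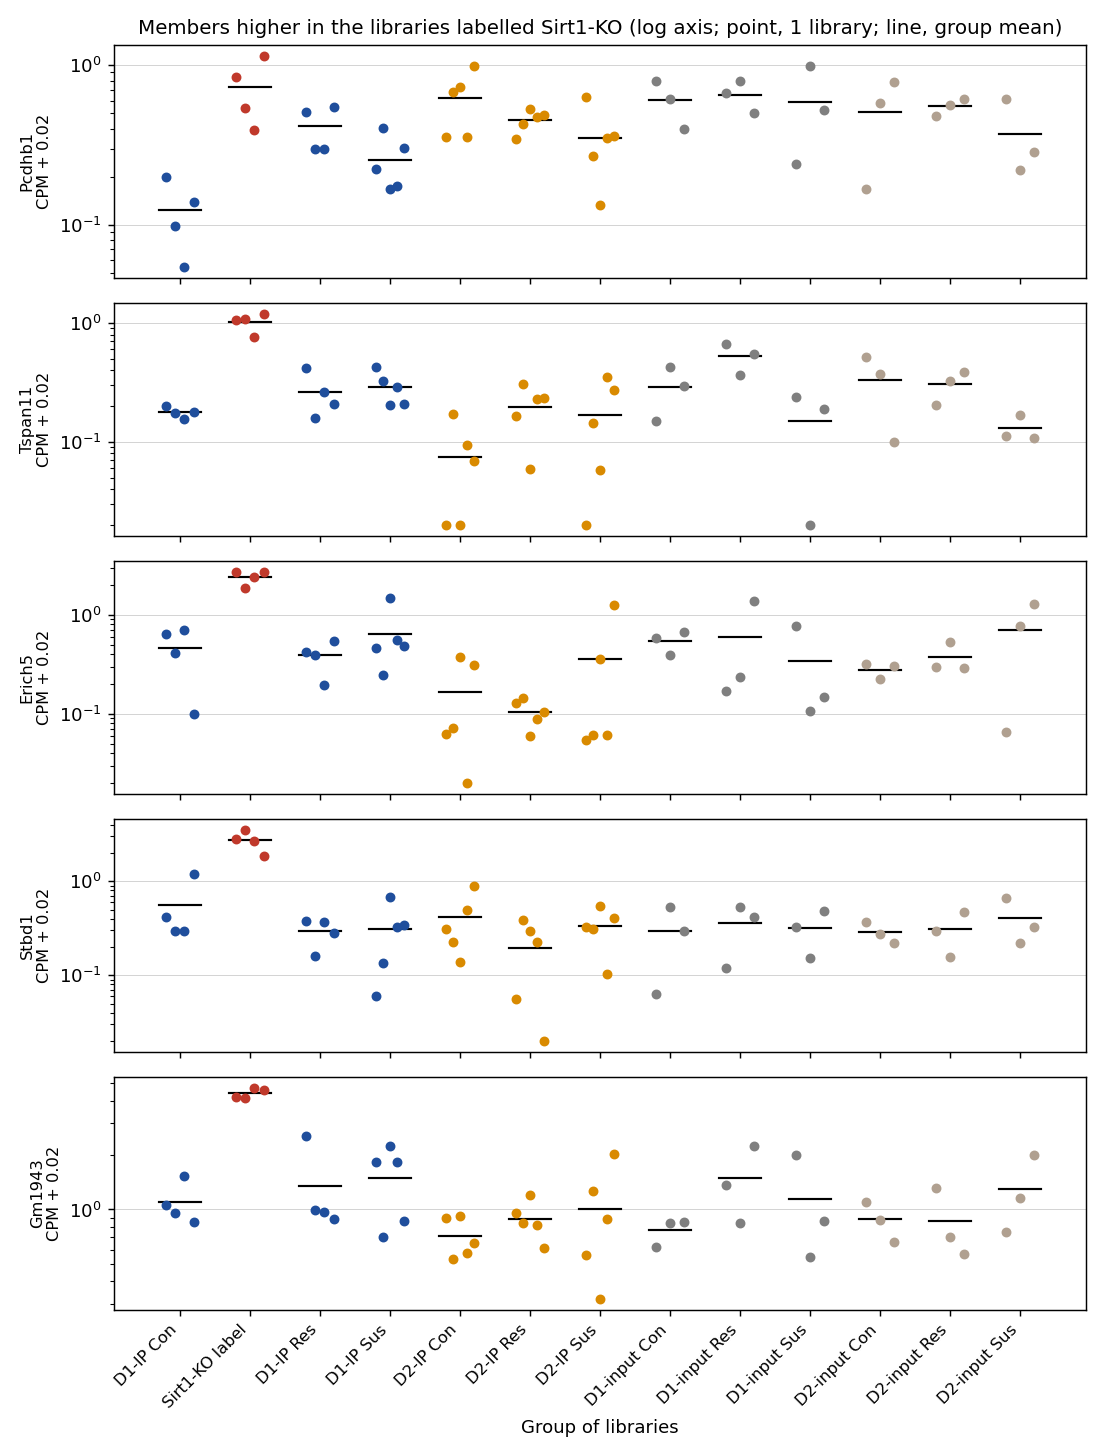
Level of the 5 members that were higher in the libraries labelled Sirt1-KO, in CPM plus 0.02 on a log axis, with 1 point for each of the 50 libraries by group and a line at each group mean. The Sirt1-KO points of Tspan11, Erich5, Stbd1 and Gm1943 lie above every other library, whereas those of Pcdhb1 share their range with 25 of the other 46.

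The other libraries separate the higher members into a pair of patterns. Tspan11 reached at most 0.645 CPM in the other 46 libraries, Erich5 1.44, Stbd1 1.19 and Gm1943 2.53, each under the lowest Sirt1-KO library (0.746, 1.86, 1.86 and 4.12 CPM). Thus no D1-IP, D2-IP or input library, of any stress group, held as much of these 4 genes as the Sirt1-KO libraries did. Over all genes tested in that contrast, 0.683% had all 4 Sirt1-KO libraries outside the range of the other 46. That range includes the D1 Con libraries that chose the members.
Pcdhb1 differed from the other 4. Its Sirt1-KO range, 0.373 to 1.12 CPM, held 25 of the 46 other libraries: 8 of 15 D2-IPs, 8 of 9 D1 inputs, 6 of 9 D2 inputs and 3 of 9 D1-IPs of defeated mice. The D1 Con libraries, at 0.103 ± 0.0621 CPM (SD, n = 4), were the lowest of any group for this gene, below D1-IP Res (0.393 ± 0.133, SD, n = 4) and D1-IP Sus (0.233 ± 0.0979, SD, n = 5). The D1 Con values took part in the choice of members, so this order is given as values.

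**Figure D2:**
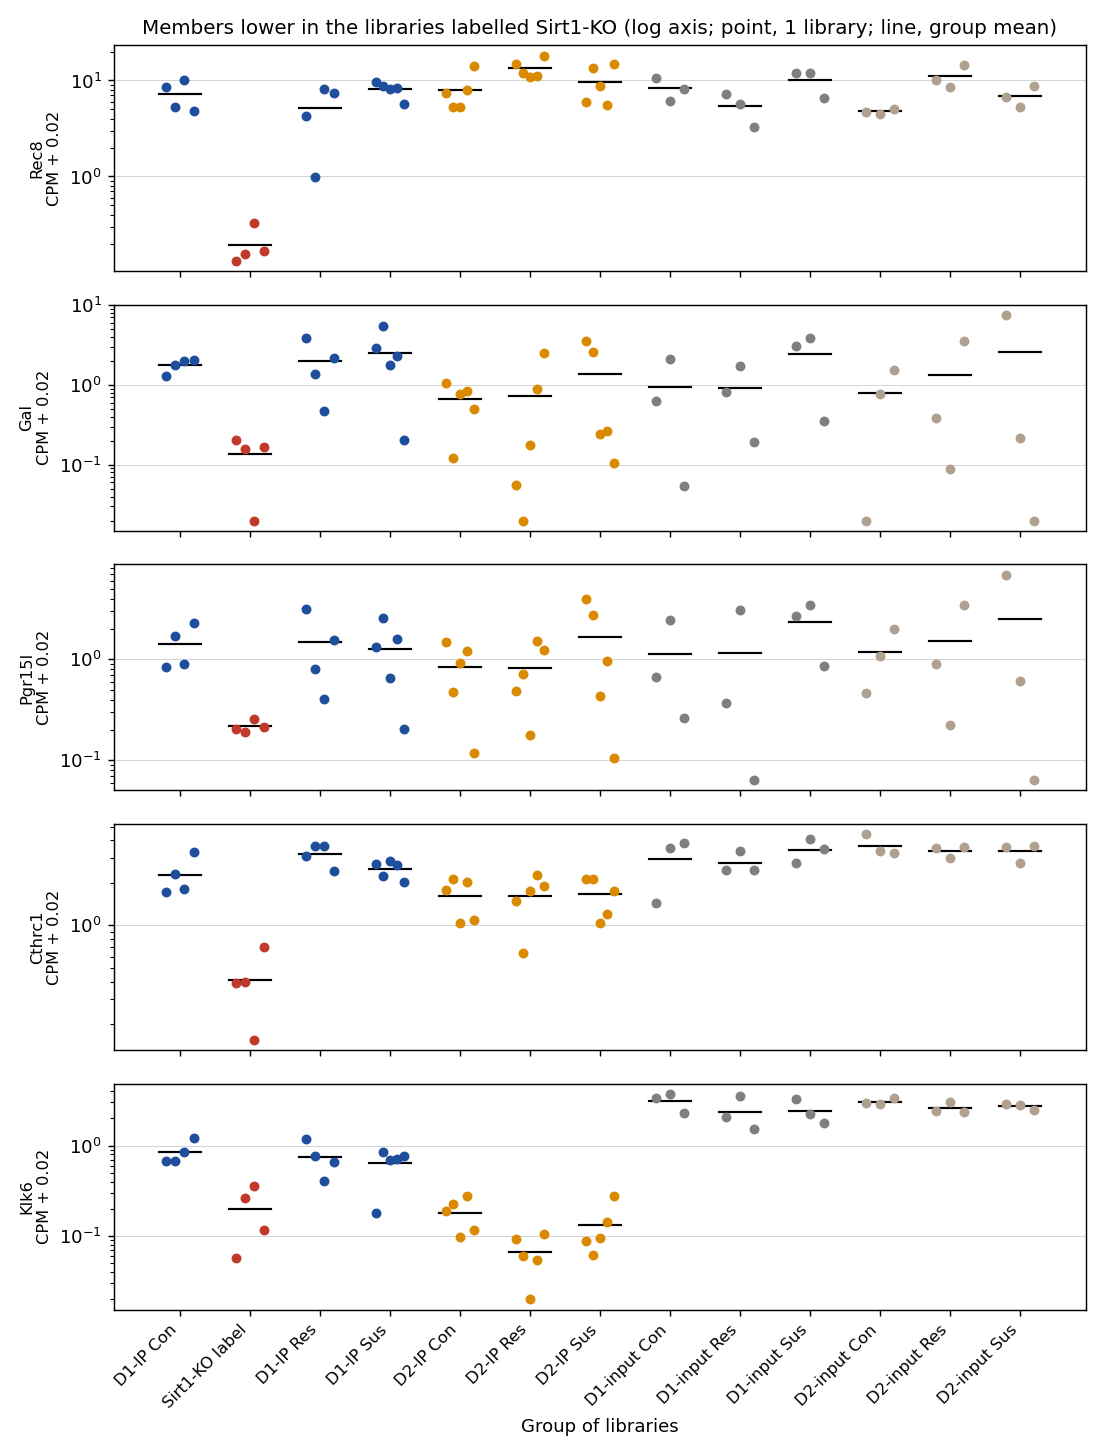
Level of the 5 members that were lower in the libraries labelled Sirt1-KO, in CPM plus 0.02 on a log axis, with 1 point for each of the 50 libraries by group and a line at each group mean. Rec8 in the Sirt1-KO libraries lies below all the others, while Klk6 there lies among the D2-IP libraries, 13 of 15 of which fall within its range.

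Among the lower members only Rec8 left the range of all other libraries. The Sirt1-KO libraries had 0.112 to 0.305 CPM of Rec8 and the other 46 had 0.973 to 18.1, with D1-IP Res 2 the lowest of the 46 and the next lowest at 3.29. Rec8 was thus counted in IPs of both lines and in whole tissue, at 6.78 ± 2.73 CPM (SD, n = 9) in D1-IPs of defeated mice, 10.3 ± 4.12 (SD, n = 15) in D2-IPs and 7.75 ± 3.07 (SD, n = 18) in inputs. D1-IPs of Con, Res and Sus mice also held 98.2 ± 12.0 CPM of Drd2 (SD, n = 13), so a count in an IP does not by itself place a gene in that cell type.
Cthrc1 had a single other library within the Sirt1-KO range, D2-IP Res 2 at 0.614 CPM, and the remaining 45 were above it. Klk6 had 14 of the 46 within its Sirt1-KO range and 2 below, all but 1 of them D2-IPs, the other being D1-IP Sus 1 at 0.161 CPM. Gal had 10 within, of which 5 were D2-IPs, 2 D1 inputs and 3 D2 inputs. Pgr15l had 2 within and 5 below. These low values were found in single libraries of several groups: D1-IP Sus 5 had 0.187 CPM of each of Gal and Pgr15l, as low as the highest Gal value in the Sirt1-KO libraries.

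Against single sets of libraries that the choice did not use, the count of members outside the range can be read beside that of all genes. For 7 of 10 members the Sirt1-KO libraries were outside the range of the 9 D1-IPs of defeated mice, as they were for 2.88% of the 13626 genes, with Gal separated by less than 1 count. They were Tspan11, Erich5, Stbd1 and Gm1943 above and Rec8, Gal and Cthrc1 below. Against the 15 D2-IPs it was 5 of 10, with 13.1% over all genes, and against the 18 inputs 7 of 10, with 55%. The Sirt1-KO side of these counts is the one that chose the members, so they are a description and carry no test.

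Gal and Pgr15l rose and fell together from library to library. Over the 42 libraries not used in the choice, Pearson's r of their log2 CPM was 0.82, and within sets it was 0.95 in 9 D1-IPs of defeated mice, 0.71 in 15 D2-IPs and 0.90 in 18 inputs. These are descriptions over libraries that share a line and a preparation. D2-input Sus 1 had the most of both, 7.46 CPM of Gal and 6.87 of Pgr15l, and D2-input Sus 3 had 0 and 0.0440 CPM, so libraries of one group lay at both ends. Over all inputs Gal spread from 0 to 7.46 CPM and Pgr15l from 0.0438 to 6.87.
The genes most like them in level over the 46 libraries were Rims3 (r = 0.85) and Prlr, the prolactin receptor (0.84), for Gal, and Irs4, an insulin receptor substrate (0.92), and Gabrq, a GABA-A receptor subunit (0.91), for Pgr15l. Prlr and Irs4 were also lower in the Sirt1-KO libraries, Prlr at 1.89 ± 0.564 CPM (SD, n = 4) against 5.71 ± 1.63 (SD, n = 4) and Irs4 at 2.95 ± 1.11 against 8.09 ± 2.93, and both were called there. Gabrq had a log2 fold change of -1.06 and Rims3 of -0.33, and neither was called. Markers of hypothalamic peptidergic cells summed to 10.6 to 14.2 CPM in the Sirt1-KO libraries and 10.6 to 22.3 in D1 Con. Of the 9 genes listed, 3 had enough counts to be tested in that contrast and 0 were called. The part of such cells in the Gal and Pgr15l values was not tested.
For the other members of at least 1 mean CPM, the genes most alike over the 46 libraries were not called in the Sirt1-KO libraries. Klk6 was most like Aldh1a1 (r = 0.95), an enzyme that makes retinoic acid, and Fndc4 (0.94), which had log2 fold changes of 0.26 and 0.18 there. Within the 28 IPs r was 0.85 and 0.89, and within the 18 inputs 0.07 and -0.63. Cthrc1 was most like Txnrd3 (r = 0.82, log2 fold change 0.20) and Cerk, a ceramide kinase (r = 0.81, -0.16). The correlations were lower for Gm1943, with Tnks1bp1 (r = 0.65, log2 fold change 0.48) and Mfsd12 (r = 0.59, 0.29), and for Rec8, with 3110009E18Rik (r = 0.53, 0.16) and Sfxn4 (r = 0.51, -0.20).

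**Figure D3:**
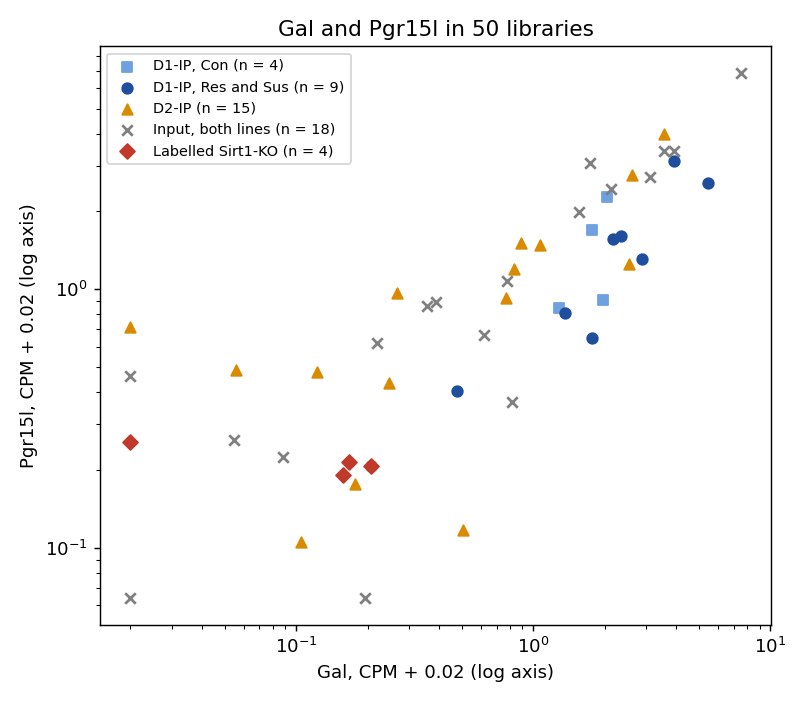
Gal against Pgr15l, both in CPM plus 0.02 on log axes, with 1 point per library coloured by set. The points follow a rising trend with some libraries off it, such as D2-IP Res 2 with 0 CPM of Gal and 0.696 of Pgr15l. The 4 libraries labelled Sirt1-KO sit near its lower end, with 0 to 0.187 CPM of Gal and 0.172 to 0.237 of Pgr15l. Of the other 46 libraries, 5 had less Pgr15l than any of them.

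The promoters of these 2 genes are shown because their r over the 42 libraries was the highest of all pairs of members. Over the same libraries Cthrc1 and Klk6 had 0.71, with -0.14 in D1-IPs of defeated mice, 0.18 in D2-IPs and -0.06 in inputs. Erich5 and Gm1943 had 0.55, with 0.56, 0.29 and 0.60 in those sets. The sequences come from RefSeq on GRCm38.p6, which held a promoter for 6 of the 10 members, and run from 250 bases before to 50 after the start of the gene, 5′ to 3′ on the gene's strand. Capitals mark TGACGCGG, an 8-base run found in both.
Gal, chr19:3414495-3414794, minus strand: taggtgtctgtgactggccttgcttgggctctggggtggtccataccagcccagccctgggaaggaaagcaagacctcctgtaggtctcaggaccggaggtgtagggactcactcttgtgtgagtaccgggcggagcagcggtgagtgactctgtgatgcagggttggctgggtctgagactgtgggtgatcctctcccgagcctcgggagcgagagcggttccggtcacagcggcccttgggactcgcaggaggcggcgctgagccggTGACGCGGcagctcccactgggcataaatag
Pgr15l, chrX:97072346-97072645, plus strand: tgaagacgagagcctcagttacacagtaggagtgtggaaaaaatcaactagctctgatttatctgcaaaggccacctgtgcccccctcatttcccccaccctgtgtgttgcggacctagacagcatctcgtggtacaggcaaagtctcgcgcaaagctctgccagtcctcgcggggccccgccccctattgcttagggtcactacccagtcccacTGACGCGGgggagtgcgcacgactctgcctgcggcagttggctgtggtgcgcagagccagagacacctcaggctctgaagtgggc
The run starts at base 270 of 300 in Gal and 216 in Pgr15l. Searched on both strands, it was in 184 of 32851 promoters of this length (0.56%), but it was picked after both promoters had been read, so its rarity is no evidence of a link. Its first 5 bases, TGACG, the core that CREB and ATF factors bind, were in 20.8% of promoters and in no other member with a promoter in the table, and the full palindrome TGACGTCA (1.79%) was in neither. GGGCGG, the core of the GC box, was in both and in Stbd1 and Klk6, and in 35.7% of all. TATAAA was in neither, with 13.6% of promoters holding it.

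The next question was whether the members differ between D1- and D2-MSNs, asked in defeated mice so that the D1 Con libraries were not compared. Of 14224 genes tested between 9 D1-IPs and 10 D2-IPs, 1038 passed a fold over 1.5 and an adjusted p under 0.05 (7.3%), 4.84% higher in D1-IPs and 2.45% lower. Of the 10 members 9 could be tested, Tspan11 falling below the filter on low counts, and 4 were called: Klk6, Cthrc1 and Erich5 were higher in D1-IPs, and Rec8 was higher in D2-IPs. Klk6 had at most 7 counts in any D2-IP, so it passed that filter through the D1-IPs, where it is higher. The 5 lower members also had to be counted in D1 Con, which are D1-IPs. The share called is thus not independent of the choice, and its excess over all genes is no evidence about the members. The median log2 fold change of the 9 was 0.59 and that of all genes -0.02.
Klk6 showed the largest difference. Its D1-IPs ran from 0.161 to 1.15 CPM with a median of 0.695, and its D2-IPs from 0 to 0.255 with a median of 0.0697, so that a single D1 library, Sus 1, reached down into the D2 range. The log2 fold change was 3.13 ± 0.37 (SE, adjusted p = 1.35e-07, edgeR), on 4 to 26 counts per D1 library and 0 to 6 per D2 library. For comparison, the Sirt1-KO libraries, which are D1-IPs, had 0.179 ± 0.137 CPM (SD, n = 4) of Klk6 and the 15 D2-IPs 0.107 ± 0.0796 (SD, n = 15).
Cthrc1 ran from 2.01 to 3.61 CPM in D1-IPs (median 2.70) and from 0.614 to 2.25 in D2-IPs (median 1.73), with a log2 fold change of 0.78 ± 0.19 (SE, adjusted p = 0.00229, edgeR). Here the Sirt1-KO libraries, at 0.393 ± 0.225 CPM (SD, n = 4), were lower than the means of both cell types. Rec8 ran from 0.973 to 9.65 CPM in D1-IPs (median 8.08) and from 5.55 to 18.1 in D2-IPs (median 11.6), with a log2 fold change of -0.82 ± 0.25 (SE, adjusted p = 0.0119, edgeR) and ranges that overlapped widely.
Erich5 ran from 0.175 to 1.44 CPM in D1-IPs (median 0.444) and from 0.0337 to 1.23 in D2-IPs (median 0.0771). Its log2 fold change of 1.47 ± 0.57 (SE, adjusted p = 0.0471, edgeR) stood near the threshold, and the call was lost without any one of 14 of the 19 libraries, with adjusted p from 0.00160 to 0.121 over all 19. It was also lost with no filter on low counts (adjusted p = 0.0534), which left 3 members called.

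The other 5 tested members did not pass. Gal was at 2.27 ± 1.65 CPM (SD, n = 9) in D1-IPs and 1.02 ± 1.33 (SD, n = 10) in D2-IPs. Its log2 fold change was 1.17, with a 95% interval of 0.03 to 2.31 (unadjusted p = 0.0542, adjusted p = 0.126, edgeR). The interval treats the SE as normal and is narrower than the test allows, so it leaves out 0 although the p is over 0.05. Gm1943 had 0.59 (0.03 to 1.14, adjusted p = 0.112), and Pcdhb1, Stbd1 and Pgr15l had -0.33, 0.25 and 0.21 with intervals that included 0. These intervals leave room for differences of over 1 on the log2 scale in Gal, Gm1943, Stbd1 and Pgr15l.
Cell type markers differed in the same contrast: 6 of 6 genes of cortical excitatory neurons were higher in D1-IPs, as were 3 of 10 oligodendrocyte genes, with Ermn at 0.84 and Cldn11 at 0.80. Of the cholinergic genes 4 of 5 were lower in D1-IPs, with a median log2 fold change of -3.22 over the list. Of the 6 genes of GABA interneurons 3 were higher and 1 lower, and of 5 hypothalamic peptidergic genes tested 2 were higher. The summed oligodendrocyte level was 530 to 851 CPM in these D1-IPs and 431 to 692 in the 15 D2-IPs. The part of these markers in the difference in Klk6, Cthrc1 and Erich5 was not tested. Among related genes, Tspan14 (0.67) and Rad21l (0.81), a meiotic cohesin gene like Rec8, were higher in D1-IPs, and Celsr1 (-0.60), of the planar polarity list, was lower.

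**Figure D4:**
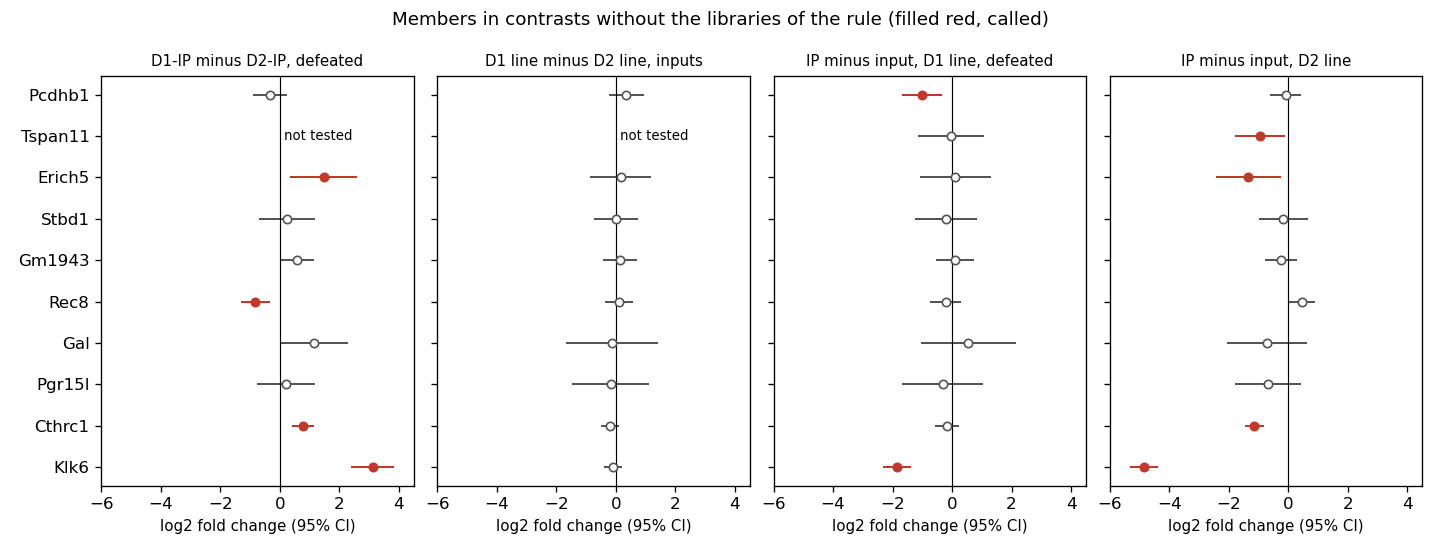
Log2 fold change of each member in 4 comparisons in which the D1 Con IPs were not compared. Bars are 95% intervals that treat the SE as normal, and filled red points mark where the comparison's threshold was passed. The comparison of inputs between the lines includes the D1-input Con libraries. Klk6 lies furthest from 0, at 3.13 in D1-IP against D2-IP and at -4.84 in D2-IP against D2 input.

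Comparing IPs with inputs shows whether a member makes up more or less of the RNA on tagged ribosomes than of the RNA of the whole punch. The input also holds RNA that is not on ribosomes, so the source of a difference was not tested. In the D2 line, 43.6% of 15404 genes passed a fold over 1.5 and an adjusted p under 0.05 between 15 IPs and 9 inputs, 12.8% higher and 30.8% lower in the IP. Of the 10 members 4 were called, all lower in the IP: Klk6, Cthrc1, Erich5 and Tspan11. In the D1 line after defeat, with 41.9% of genes called, 13.5% higher and 28.5% lower in the IP, 2 of 10 members were called, Klk6 and Pcdhb1, again lower. The share of members was near that of all genes in the D2 line and below it in the D1 line.
Klk6 was depleted in both lines. The D2 inputs had 2.96, 2.88 and 3.31 CPM in Con, 2.40, 3.04 and 2.32 in Res and 2.88, 2.79 and 2.46 in Sus, all above the highest D2-IP at 0.258. The log2 fold change was -4.84 ± 0.24 (SE, adjusted p = 2.39e-21, edgeR) in the D2 line and -1.85 ± 0.24 (SE, adjusted p = 6.79e-09, edgeR) in the D1 line. The difference between the lines was tested in defeated mice, as an interaction chosen after seeing the data, and was 3.30 ± 0.42 on the log2 scale (SE, adjusted p = 3.39e-07, edgeR), where 16.9% of genes passed. The oligodendrocyte genes were likewise lower in the IP, 10 of 10 in each line, with Ermn at -3.97 and Cldn11 at -3.91 in the D2 line and Mobp at -3.41 and Mbp at -3.20 in the D1 line. Klk8, a related protease, had -3.72 in the D2 line. The genes of astrocytes (6 of 6), microglia (6 of 6), endothelial cells (5 of 5), fibroblasts and mural cells (6 of 6) and ependymal cells (5 of 5) were lower in the IP of both lines as well, and in the D2 line also those of cortical excitatory neurons (6 of 6) and GABA interneurons (6 of 6). By contrast, 4 choroid plexus genes summed to 52.9 to 72.0 CPM in the 15 D2-IPs, 35.6 to 55.1 in D1-IPs of defeated mice and 16.3 to 33.2 in the 18 inputs. The part of any of these cells in the Klk6 values was not tested.
Cthrc1 was depleted in the D2 line, from 3.44 ± 0.468 CPM (SD, n = 9) in inputs to 1.60 ± 0.508 (SD, n = 15) in IPs, a log2 fold change of -1.13 ± 0.17 (SE, adjusted p = 6.45e-08, edgeR). In the D1 line after defeat it had 3.07 ± 0.639 CPM (SD, n = 6) in inputs and 2.79 ± 0.562 (SD, n = 9) in IPs, which did not pass, with a log2 fold change of -0.16 and a 95% interval of -0.56 to 0.25. The interaction was 0.92 ± 0.29 (SE, adjusted p = 0.0229, edgeR), and it missed the threshold without D1-input Res 1 (adjusted p = 0.0502) or D1-input Sus 1 (adjusted p = 0.0563).
The remaining calls were weaker. Erich5 had -1.34 ± 0.55 (SE, adjusted p = 0.0249, edgeR) in the D2 line and lost the call without D2-input Res 2 or D2-input Sus 3. Tspan11 had -0.94 ± 0.43 (SE, adjusted p = 0.0438, edgeR) and lost it without any one of 16 of 24 libraries. Pcdhb1 had -1.01 ± 0.34 (SE, adjusted p = 0.00706, edgeR) in the D1 line and -0.69 (adjusted p = 0.0859) without D1-input Sus 2.
Rec8 had 0.47 in the D2 line with an adjusted p of 0.0452 (edgeR), under the fold limit, and -0.22 in the D1 line, with a 95% interval of -0.75 to 0.31. Gal, Pgr15l, Stbd1 and Gm1943 passed in neither line. In contrast to Pcdhb1, 12 of the 21 other Pcdhb genes were higher in the D2-IPs, led by Pcdhb7 (1.27) and Pcdhb17 (1.26), and 1, Pcdhb2 (-0.84), was lower, with 9 higher and 1 lower in the D1 line. Galr1 was lower in the IP of both lines, at -1.94 and -1.29.

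In whole tissue no member was called between the lines. Between 9 D1 and 9 D2 inputs 3 of 14820 genes passed (0.0202%), and none of the 9 members tested did, either at the adjusted threshold or at an unadjusted p under 0.05, by edgeR or by DESeq2 at the adjusted threshold. The log2 fold changes ran from -0.19 for Cthrc1 (95% interval -0.50 to 0.12) to 0.35 for Pcdhb1 (-0.23 to 0.94). Rec8 (0.10, -0.38 to 0.59) and Klk6 (-0.10, -0.40 to 0.20) were likewise close between the lines.

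The stress groups were compared at the looser limit of 0.05 on the p before adjustment. D1-IP Sus and Res were not tested against D1 Con, since the D1 Con libraries chose the members. No member and 0 genes of the whole table passed an adjusted p under 0.05 by edgeR in the contrasts run, which were Sus against Res in D1-IPs and all 3 pairs of groups in D2-IPs and in inputs. In D1-IPs, Sus against Res, 4.23% of 14224 genes had an unadjusted p under 0.05 and none of the 9 members tested did, by edgeR or DESeq2. In D2-IPs it was 3.68% for Sus against Con, with 1 member (Pcdhb1), 3.02% for Res against Con, with 2 members (Rec8 and Klk6), and 1.66% for Sus against Res, with 1 member (Erich5).
Pcdhb1 had 0.334, 0.664, 0.706, 0.332 and 0.973 CPM in D2-IP Con 1 to 5 and 0.607, 0.249, 0.113, 0.329 and 0.340 in Sus 1 to 5, which overlap (log2 fold change -0.83 ± 0.38, SE, adjusted p = 0.999, edgeR). It was no longer past the limit with DESeq2 or without any one of 7 of the 10 libraries. Rec8 had 7.35, 5.31, 5.25, 7.93 and 14.1 CPM in Con and 14.7, 12.0, 10.7, 11.2 and 18.1 in Res, so that a single Con library, number 5, lay in the Res range (log2 fold change 0.75 ± 0.33, SE, adjusted p = 1.00, edgeR). It too was lost with DESeq2, and without any one of 6 of the 10 libraries.
Klk6 had 0.167, 0.204, 0.0784, 0.258 and 0.0973 CPM in D2-IP Con and 0.0719, 0.0410, 0, 0.0347 and 0.0849 in Res, at most 7 counts in any library (log2 fold change -1.71 ± 0.67, SE, adjusted p = 1.00, edgeR). It stayed past the limit with DESeq2 and missed it without D2-IP Con 4. Erich5 had 0.108, 0.123, 0.0392, 0.0693 and 0.0849 CPM in D2-IP Res and 0.0337, 0.0416, 0.338, 0.0411 and 1.23 in Sus, and the value of 1.90 ± 0.89 on the log2 scale (SE, adjusted p = 1.00, edgeR) fell to 0.41 without D2-IP Sus 5. With the replicate number as a block Erich5 had 1.53, and under either change it was no longer past the limit.
The Sus against Res difference was also compared between D1- and D2-IPs, where 0 genes passed an adjusted p under 0.05 (edgeR) and Rec8 alone among the 9 members had an unadjusted p under it, with a difference of 1.07 ± 0.50 on the log2 scale (SE, adjusted p = 1.00, edgeR).
In inputs, none of the 9 members tested had an unadjusted p under 0.05 between Sus and Con (4.47% of 14820 genes did), Res and Con (3.23%) or Sus and Res (5.54%), by edgeR or DESeq2. Gal had the largest of these changes, 1.54 for Sus against Con, with a 95% interval of -0.33 to 3.41 that is set by the spread of its inputs. In no library of any stress group did Tspan11, Erich5, Stbd1, Gm1943 or Rec8 reach the levels seen in the libraries labelled Sirt1-KO.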

How the data were processed

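The data are RNA-seq counts of 50 NAc libraries. Per the labels, reads were trimmed with cutadapt, aligned to mm10 with STAR and counted with HTSeq, which is not listed for the Sirt1-KO libraries; versions and strand setting are not given in the sources used here. The authors deposited raw counts per gene symbol, unnormalised, in 2 tables that share the 4 D1 Con columns with identical values. Entries naming no gene (5) took 21.5% ± 2.83 (SD, n = 28) of counts in IPs, 37.8% ± 1.16 (SD, n = 18) in inputs and 21.0% ± 2.10 (SD, n = 4) in Sirt1-KO libraries and were left out, as were 2 columns with no sample here; 5 symbols listed again were taken once. Of 76 replicate pairs none was a duplicate.

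From these counts, edgeR 4.0.16 (R 4.3.3) gave TMM-scaled CPM and the quasi-likelihood tests (filterByExpr, minimum count 10, minimum total 15), with Benjamini-Hochberg adjustment over all genes tested, and DESeq2 1.42.0 as an alternative. Called means a fold over 1.5 with an adjusted p under 0.05, and for stress an unadjusted p under 0.05, as in the study. Log2 CPM used a prior count of 2. The model was tested on simulated data. P-values measure the spread between pools of 2 mice. Where Con is not compared, D1 Con entered a model only through the count filter, the scaling and the shared spread. Comparisons of inputs between lines, or with Con, include D1-input Con, which may share mice with the D1 Con IPs.

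The members and gene lists were chosen with earlier results of these data known. Named besides the members are the label checks, up to 2 called genes per list and direction with the largest change, the next called gene beyond the members in each direction, the 2 genes most correlated with each member of at least 1 mean CPM, and nearest tested neighbours. Gm15446, Il12a, Wdr70, Klk8, Pcdhb2 and genes in counts of 5 or fewer were named after their values were seen.

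Replicate numbers were checked for pairing by the correlation of deviations from group means: of 40 same-numbered pairs in 10 pairs of groups, 21 had r over 0.1 (-0.45 to 0.38), and only D2-IP Res and Con had every pair over it, so the block pairs those. Per the labels the input is leftover supernatant of the lysate used for IP, so an IP and an input of one number may share their mice, although no label ties the numbers; of 18 such pairs, 9 had r over 0.1 (-0.32 to 0.64), and in D1 Sus all 3 did. With that pool as a block, in the libraries that have both, every member called against inputs was called again, as were both line differences (Klk6 3.72, Cthrc1 1.15 on the log2 scale). Positions are from GENCODE vM21 on GRCm38. Alternatives were RLE factors, no filter, DESeq2, a replicate block, other thresholds, only the groups compared, and leaving out each library.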

Additional observations from a re-analysis of the deposited data

Results flagged for a closer look

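Of 70 member and group combinations with 4 or 5 libraries, 3 had 1 library far from the rest by Dixon's criterion, which chance gives in about 1 in 20. Gm1943 was at 2.53 CPM in D1-IP Res 1, against 0.866 to 0.973 in the other 3 Res libraries. Klk6 was at 0.161 CPM in D1-IP Sus 1, against 0.667 to 0.837 in the other 4 Sus libraries. Gal was at 0 CPM in Sirt1-KO 4, against 0.137 to 0.187 in the other 3.

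The IP against input difference after defeat was not the same in the D1 and D2 lines for 2 members. The D1 line minus the D2 line was 0.92 on the log2 scale for Cthrc1 (adjusted p = 0.0229, edgeR) and 3.30 for Klk6 (adjusted p = 3.39e-07, edgeR), in tests added after seeing the data.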

How the results depend on the processing

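The count of genes called between Sirt1-KO and D1 Con was 102 and became 105 with RLE factors, 170 with no filter, 223 with DESeq2, 226 with no fold limit and 630 with the replicate block, although none of the 3 shared numbers paired those libraries; leaving out 1 library gave 29 to 386. The calls higher were 38 of 102, but 107 of 223 with DESeq2, 428 of 630 with the block and 230 of 386 without Sirt1-KO 5. Members called between D1-IPs and D2-IPs were 4 (3 with no filter, where Erich5 was lost, and 3 to 5 without 1 library). The 4 stress calls in IPs became 2 with DESeq2, 1 with only the groups compared, 0 at an adjusted p and 3 with the block (Erich5 lost, Rec8 at 0.78 and Klk6 at -1.72 kept), and 2 to 5 without 1 library. With only the groups compared, Rec8 was kept, while Pcdhb1, Klk6 and Erich5 fell below the filter on low counts and were not tested. Stress calls in inputs went from 0 to 2 with no filter and to 2 with the block, all Tspan11, and 0 to 2 without 1 library. Against inputs, 4 members in the D2 line became 2 to 4 and 2 in the D1 line 1 to 2 without 1 library, and no line difference in inputs was called under any alternative run. With the mouse pool as a block the calls against inputs stayed at 4 and 2. The block changed no other call, no called value outside the Sirt1-KO contrast reversed its sign, and causes were not tested. Levels under about 1 CPM rest on few counts. This limits Tspan11, Stbd1, Erich5 and Pcdhb1 most, with means of 0.211, 0.320, 0.378 and 0.422 CPM over the other 46 libraries. It also limits Klk6, Gal, Pgr15l and Gm1943 where they are low.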
